A study of Mus musculus with 8 samples.

Results

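Intestinal RNA of mice given bovine colostrum exosomes without colitis induction (Ex) was compared with that of mice given saline (NC), 2 libraries in each group and 4 of the 8 libraries of the series. Wild type C57BL/6 mice of the Ex group received 1 mg of exosomes by gavage every day for 3 weeks, and NC mice received buffered saline in their place. Neither group drank dextran sodium sulfate (DSS), a polysaccharide that injures the gut lining and is used to cause colitis. The other libraries came from mice on 3% DSS for 6 days after saline (PC) or after exosomes (ExDSS). The labels give no age, sex or gut region, nor whether the libraries of a group came from different mice. The p-values below therefore measure the spread between libraries, which may be technical. Ex, NC, PC and ExDSS below mean libraries that carry these labels.

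Milk exosomes are membrane vesicles that carry proteins, lipids and small RNAs from the mammary gland into milk, and they can be taken up by cells of the gut lining. The colon wall consists of absorptive colonocytes, mucus-producing goblet cells, muscle, stroma and resident macrophages, and normally holds few neutrophils. When the lining is injured, neutrophils enter, epithelial cells and macrophages release chemokines such as Cxcl10 and cytokines such as Il1b, and interferon-stimulated and acute phase genes are switched on. A quiet colon is instead marked by ion and water transporters of the surface colonocytes.

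The 4 libraries differed widely in depth and content. The Ex libraries held 8813622 counts (Ex 1) and 1163147 counts (Ex 2), against 11405200 (NC 1) and 12308537 (NC 2). The ribosomal RNA precursor Rn45s took 13.1% of Ex 1, 53.5% of Ex 2 (exact 95% interval 53.4 to 53.6%), 5.12% of NC 1 and 0.407% of NC 2, and the interval covers counting error only. Outside Rn45s, 541286 counts remained in Ex 2, so 1 count there equals 1.49 normalised CPM (counts scaled to a common library size) and 3 counts equal 4.47 CPM, while 3 counts equal 0.199 to 0.307 CPM in the other 3 libraries. In Ex 1, NC 1 and NC 2, the colon genes Car1, Aqp8 and Slc26a3 ranged from 77.6 to 4396 CPM, and the small intestine genes Fabp1, Apoa4 and Sis reached at most 1.12 CPM. The libraries also went against what DSS is known to do: the summed level of 23 neutrophil genes was 18.0 and 13.4 CPM in Ex, 16.2 and 13.7 CPM in the DSS-treated PC libraries, 3413 and 2135 CPM in ExDSS, and 2675 and 2458 CPM in NC. Whether each library carries the right label was not tested, and every comparison below rests on the NC libraries as labelled.

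Ex 2 did not resemble intestine by its markers. The epithelial adhesion gene Epcam had 668 CPM in Ex 1 and 5.96 CPM (4 counts) in Ex 2, against 571 and 552 CPM in NC. Summed over 18 epithelial genes the level was 17500 CPM in Ex 1 and 154 CPM in Ex 2, against 12677 and 17886 CPM in NC, so Ex 2 held 1.00% of the NC mean. Genes outside the epithelium varied in Ex 2, and those printed next were chosen after their values were seen: the smooth muscle myosin gene Myh11 had 631 and 10.4 CPM in Ex against 249 and 695 CPM in NC, and beta-actin (Actb) had 2632 and 155 CPM in Ex against 3107 and 4072 CPM in NC, but the elongation factor gene Eef1a1 had 1418 and 3687 CPM in Ex against 615 and 299.7 CPM in NC. By summed level Ex 2 held 17.4% of the NC mean for smooth muscle, 49.1% for fibroblasts and collagen (51.0% in Ex 1) and 75.7% for enteric neurons and glia (63.6% in Ex 1). These sums hide empty members, as 11 of 25 fibroblast and collagen genes and 13 of 20 neuron and glia genes had no count in Ex 2. With Ex 2 as the sole Ex library their median log2 fold changes were -6.70 and -7.19. The median was -7.10 for the epithelial genes and -3.91 for all genes tested in that fit. Of 776 genes with at least 100 CPM in each of the other 3 libraries, a level at which Ex 2 would hold 67.1 counts, 51 (6.57%) had no count in Ex 2 and 378 (48.7%) lay at least 10-fold under the lowest of those libraries.

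Other genes were abundant in Ex 2 alone. Of 1409 genes with at least 100 CPM in Ex 2, 206 (14.6%) lay at least 10-fold above all 7 other libraries. They were led by Pabpc1, which encodes the poly(A)-binding protein of the cytoplasm (439 CPM in Ex 1 and 11237 CPM in Ex 2, against 233 and 28.2 CPM in NC). The next was Stc1, which encodes the secreted hormone stanniocalcin (2.56 and 7218 CPM in Ex, against 17.5 and 25.9 CPM in NC). The next were the nuclear RNA-binding protein gene Hnrnpk, then Pa2g4 and Hnrnpu, with Hnrnpk at 239 and 4343 CPM in Ex against 156 and 104 CPM in NC, and Hnrnpu at 133 and 3535 CPM in Ex against 160 and 82.6 CPM in NC. The ratio of Ex 2 to Ex 1 also moved with the gene width given in the table. Its median log2 was -3.32 over 645 genes of up to 1000 bases and 0.58 over 1701 genes of more than 4000 bases, while NC 2 over NC 1 had medians of 0.29 and -0.25 in the same bins. The part of RNA quality, of tissue taken and of library preparation in Ex 2 was not tested. Results are therefore given for each library, and also with Ex 1 as the sole Ex library.

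**Figure D1:**
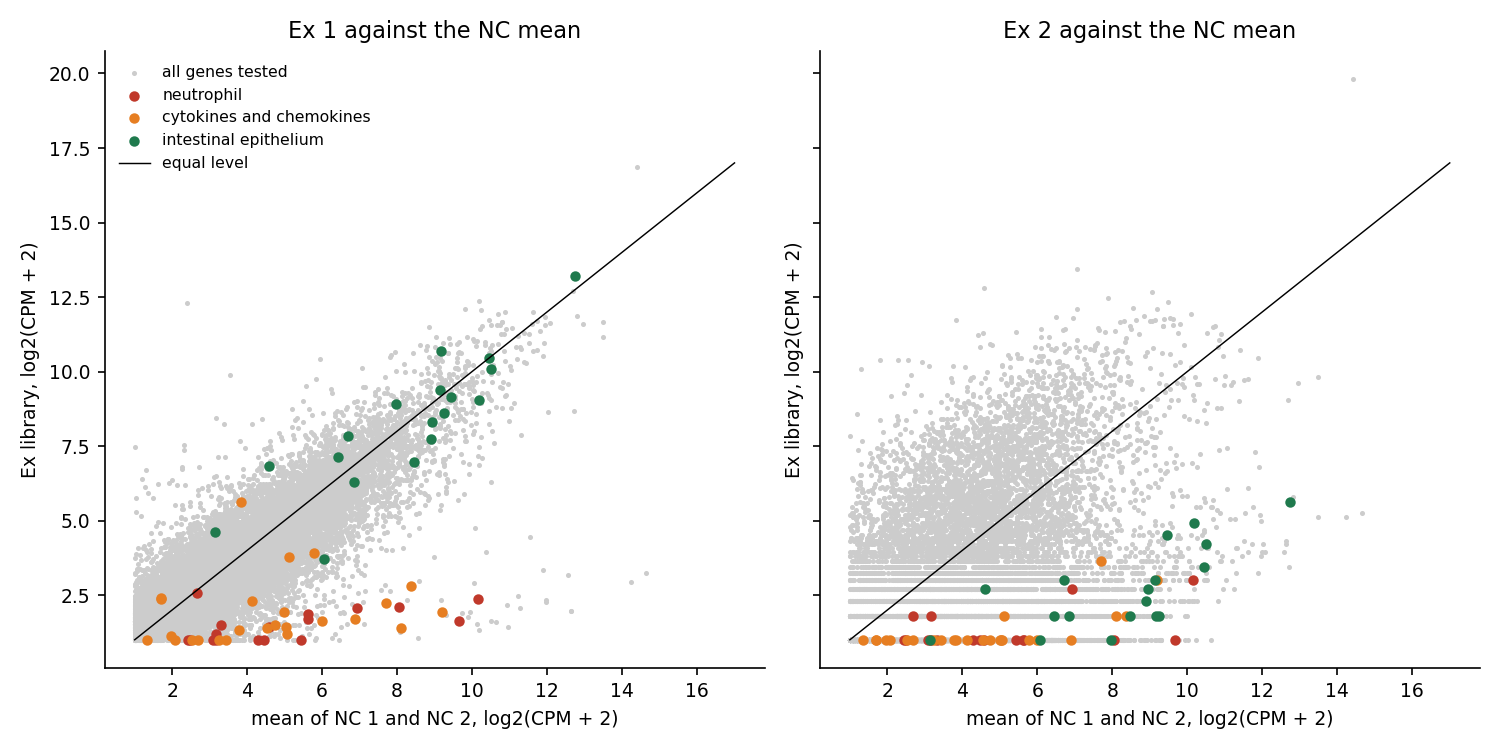
Level of each of 14567 genes tested in Ex 1 (left) and Ex 2 (right) on the vertical axis against the mean of NC 1 and NC 2 on the horizontal axis, both as log2(CPM + 2); the line marks equal levels. Epithelial genes (green) lie along the line in Ex 1 and far below it in Ex 2, while neutrophil (red) and cytokine (orange) genes lie mostly below the line in both.

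No gene passed an adjusted p of 0.05 between Ex and NC in the quasi-likelihood test of edgeR, adjusted by the Benjamini-Hochberg method over 14567 genes. The smallest adjusted p was 0.666. At an unadjusted p under 0.05, 421 genes (2.89%) were higher and 353 (2.42%) were lower in Ex, 774 in all. The higher ones made up 54.4% of these, but 71.8% under RLE scaling, 77.2% under upper-quartile scaling and 35.0% under scaling by total counts. DESeq2 called 213 genes higher and 113 lower, and limma-voom called 0, with a smallest adjusted p of 0.0740. Without Ex 2, edgeR again called 0 genes, with 202 (1.31%) higher and 285 (1.84%) lower at an unadjusted p under 0.05 and a smallest adjusted p of 0.251. Without Ex 1, when Ex 2 alone stood for Ex, edgeR called 276 genes (1.79%) higher and 1320 (8.57%) lower. At an unadjusted p under 0.05, 842 genes were higher and 395 lower without NC 1, and 179 were higher and 238 lower without NC 2.

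By levels, both Ex libraries lay at least 2-fold above both NC libraries for 378 genes (2.59%) and at least 2-fold below both for 1108 genes (7.61%). Taken alone, Ex 1 lay 2-fold above both NC libraries for 1671 genes and below both for 1332, while Ex 2 lay above for 2359 and below for 7493, and 6278 of the genes tested had no count in Ex 2, against 177 in Ex 1. Over all genes the log2 fold change had a median of -0.27, and of 0.06 without Ex 2; it was positive for 43.6% and negative for 56.4% of genes. Medians and counts of gene lists below are to be read against these values. They describe the members that passed the filter, and a gene that passed through NC counts alone had to be lower in Ex.

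Genes of neutrophils were far lower in Ex than in NC. S100a8 and S100a9 encode the 2 subunits of calprotectin, the main protein of neutrophil cytoplasm. S100a8 had 1.12 CPM in Ex 1 (11 counts) and no count in Ex 2, against 825 and 792 CPM in NC 1 and NC 2, and at the NC level Ex 2 would have held 542 counts. Its log2 fold change was -9.91 ± 1.99 (SE), and -9.44 without Ex 2. S100a9 had 3.17 and 5.96 CPM in Ex, against 1144 and 1128 CPM in NC (-8.03 ± 1.81). The groups did not overlap for either gene, and the lower NC library stood 704-fold above the higher Ex library for S100a8 and 189-fold for S100a9. Retnlg, a resistin-like protein of neutrophils, had 2.25 and 0 CPM in Ex, against 323 and 202 CPM in NC. Mmp8, the neutrophil collagenase, had no count in either Ex library, against 47.6 and 34.6 CPM in NC, which places Ex at least 17.2-fold lower with a floor of 3 counts per library and Ex 1 alone at least 134-fold lower. None of these genes passed: edgeR gave adjusted p-values of 0.666 to 0.677 for the 12 lower genes named in this text by smallest p.

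The neutrophil list as a whole had 24 genes, of which 17 passed the filter on low counts. All 17 had a negative log2 fold change, with 12 at an unadjusted p under 0.05 (10 without Ex 2), where 2.42% of all genes were. Of the 23 genes in the table, 12 had no count in Ex 1 and 19 had none in Ex 2, so that members passed the filter through NC and ExDSS, and the direction of those that passed follows in part from this. In 15 of the 17 both Ex libraries lay at least 2-fold below both NC libraries. The list's median log2 fold change was -7.41, and -8.26 without Ex 2, beside -0.27 and 0.06 for all genes. Ex 1 held 0.701% of the NC mean of the summed level and Ex 2 held 0.523%. In Ex 1 this stood beside an epithelial sum of 115% of the NC mean, but in Ex 2 the epithelial sum was itself at 1.00%, so the neutrophil level of Ex 2 does not separate neutrophil genes from epithelial ones. In bulk tissue, fewer cells of a type and less RNA per cell cannot be told apart.

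Cytokine and chemokine genes were low in the same way. Cxcl10, the interferon-induced attractant of T cells, had 0.613 and 1.49 CPM in Ex, against 318 and 224 CPM in NC (log2 fold change -8.31 ± 1.93; -8.73 without Ex 2). Il1b, the cytokine interleukin-1 beta, had 1.84 and 5.96 CPM in Ex, against 734 and 437 CPM in NC (-7.38 ± 1.73). The lower NC library stood 150-fold above the higher Ex library for Cxcl10 and 73.2-fold for Il1b. Cxcl5, a neutrophil attractant made by epithelium, had 4.91 and 1.49 CPM in Ex, against 594 and 59.0 CPM in NC. Il11, a cytokine of stromal cells, had 1.12 and 0 CPM in Ex, against 70.3 and 53.5 CPM in NC. Of 30 genes of this list 25 were tested, 22 were negative and 13 lay at an unadjusted p under 0.05, all of them lower, but 6 did without Ex 2. The median was -5.49, and -5.64 without Ex 2. No source used here says whether counting used strand, so reads of Cxcl10 may be shared with the overlapping Art3, those of Il1b with Il1bos, and those of Serpina3f with Serpina3g.

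The promoters of 4 of these genes are shown because they belong to the 5 lower genes with the smallest p and hold at least 1 of the motifs searched, and that of Mptx1 because it was the most abundant of the higher genes. They come from RefSeq on GRCm38.p6, each with 250 bases before and 50 after the annotated start, read 5′ to 3′ on the gene's strand: S100a8 (chr3:90668821-90669120, + strand), S100a9 (chr3:90695672-90695971, - strand), Cxcl10 (chr5:92348840-92349139, - strand), Il1b (chr2:129371090-129371389, - strand) and Mptx1 (chr1:174330268-174330567, + strand). Capitals mark matches on either strand to TATAAA (the TATA box), GGGANTTTC (of the kind NF-kappaB binds) and GAAANNGAA (of the kind interferon-regulated factors bind).
S100a8: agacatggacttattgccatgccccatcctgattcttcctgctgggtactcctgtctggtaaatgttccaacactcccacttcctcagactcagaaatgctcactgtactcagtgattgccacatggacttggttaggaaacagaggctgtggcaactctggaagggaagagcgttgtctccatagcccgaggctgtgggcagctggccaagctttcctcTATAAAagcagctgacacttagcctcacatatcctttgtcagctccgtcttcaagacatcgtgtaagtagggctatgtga
S100a9: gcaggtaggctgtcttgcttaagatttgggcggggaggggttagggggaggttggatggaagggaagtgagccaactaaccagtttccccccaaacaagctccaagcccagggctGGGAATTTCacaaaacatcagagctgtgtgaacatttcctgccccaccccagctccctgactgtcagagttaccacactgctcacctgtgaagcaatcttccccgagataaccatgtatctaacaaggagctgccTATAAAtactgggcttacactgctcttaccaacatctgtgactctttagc
Cxcl10: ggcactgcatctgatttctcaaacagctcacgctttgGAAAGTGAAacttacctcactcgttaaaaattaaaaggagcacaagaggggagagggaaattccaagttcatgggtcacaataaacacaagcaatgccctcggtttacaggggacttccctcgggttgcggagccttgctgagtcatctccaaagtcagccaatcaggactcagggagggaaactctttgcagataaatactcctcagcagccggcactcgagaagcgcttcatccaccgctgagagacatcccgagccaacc
Il1b: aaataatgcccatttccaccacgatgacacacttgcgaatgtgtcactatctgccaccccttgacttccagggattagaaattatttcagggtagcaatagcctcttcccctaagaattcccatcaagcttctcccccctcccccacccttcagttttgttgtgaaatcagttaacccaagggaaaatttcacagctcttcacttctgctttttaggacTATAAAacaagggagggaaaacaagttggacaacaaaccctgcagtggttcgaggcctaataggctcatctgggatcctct
Mptx1: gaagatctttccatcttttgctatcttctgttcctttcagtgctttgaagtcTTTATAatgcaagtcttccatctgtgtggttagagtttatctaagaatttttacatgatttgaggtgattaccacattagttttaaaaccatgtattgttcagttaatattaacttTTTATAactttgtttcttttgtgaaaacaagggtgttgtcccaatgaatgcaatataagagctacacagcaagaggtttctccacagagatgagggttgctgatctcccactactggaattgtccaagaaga
The TATA box began 30 bases before the start in S100a8, 31 before it in Il1b and at the start itself in S100a9. The kappaB-type match of S100a9 began 135 bases before its start, and the interferon-type match of Cxcl10 began 213 bases before. Mptx1 had TATAAA on the opposite strand at 198 and 82 bases before its start. No marked stretch overlapped another. Promoter sequences were found for 11 of the 12 lower and 11 of the 12 higher genes. TATAAA occurred in 7 lower and 3 higher ones, GAAANNGAA in 3 and 2, and GGGANTTTC in 1 and 0, against 13.6%, 8.56% and 1.11% of 32851 promoters. These matches describe letters in the window only.

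Acute phase genes and antiproteases were lower in Ex in most cases. Saa3, an acute phase protein made locally in inflamed gut, had 19.6 and 35.8 CPM in Ex, against 2551 and 3408 CPM in NC (log2 fold change -6.76 ± 1.83). Serpina3n, a protease inhibitor, had 13.5 and 14.9 CPM in Ex, against 633 and 1987 CPM in NC. Serpina3f and Serpina3g, neighbours that overlap in the table, had at most 1.49 CPM in Ex and at least 51.6 CPM in NC. For each of these genes the Ex libraries were close to each other and far below both NC libraries. All 18 listed genes were tested, 15 were negative and 10 of them lay at an unadjusted p under 0.05, both with Ex 2 and without it. The list's median was -3.54, and -2.79 without Ex 2.

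Interferon-stimulated genes were also lower in Ex. Gbp5, a guanylate-binding protein that helps assemble the inflammasome, had 2.56 and 0 CPM in Ex, against 145 and 73.7 CPM in NC (log2 fold change -6.00 ± 1.62). Isg15, the ubiquitin-like modifier of the antiviral response, had 14.3 and 8.94 CPM in Ex, against 272 and 193 CPM in NC, and Ifit1, a sensor of viral RNA, had 14.3 and 2.98 CPM in Ex, against 257 and 155 CPM in NC. The groups did not overlap for any of these genes. Ex 2 lay below Ex 1, but this order rests on few counts. At the Ex 1 level, Ex 2 would have held 1.72 (Gbp5), 9.60 (Isg15) and 9.60 (Ifit1) counts, and it held 0, 6 and 2. All 30 listed genes were tested and all 30 had a negative log2 fold change, against 56.4% of all genes. Of them, 13 lay at an unadjusted p under 0.05, and 12 did without Ex 2. The list's median was -3.52, and -2.87 without Ex 2, and its summed level was 298 and 53.7 CPM in Ex, 364 and 271 CPM in PC, and 2964 and 1473 CPM in NC.

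Genes of monocytes and macrophages were lower in Ex, with a wide difference between the NC libraries. Chil3, a chitinase-like protein of activated macrophages and neutrophil precursors, had 0.102 CPM in Ex 1 (1 count) and no count in Ex 2, against 63.1 and 86.1 CPM in NC (log2 fold change -9.49 ± 2.26). Spi1, the transcription factor PU.1 of myeloid cells, had 7.05 and 1.49 CPM in Ex, against 60.1 and 214 CPM in NC. Fcgr1, the high-affinity receptor for IgG, had 1.33 and 2.98 CPM in Ex, against 31.9 and 82.1 CPM in NC. Of 23 listed genes 22 were tested, all 22 were negative and 10 lay at an unadjusted p under 0.05; without Ex 2, 20 were negative. The median was -3.04, and -2.27 without Ex 2. The MHC class II genes, which present antigen on macrophages, dendritic cells and B cells, had 9 of 9 negative values, of which Cd74 (57.4 and 5.96 CPM in Ex, against 281 and 1486 CPM in NC) and H2-Ab1 (96.5 and 2.98 CPM in Ex, against 436 and 681 CPM in NC) lay at an unadjusted p under 0.05. Their median was -2.37, and -1.51 without Ex 2. Of lymphocyte genes, 13 of 15 T and NK cell genes (median -2.31, and -1.62 without Ex 2) and 11 of 13 B and plasma cell genes (median -0.97, and -0.13 without Ex 2) were negative, with none at an unadjusted p under 0.05 in either fit.

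**Figure D2:**
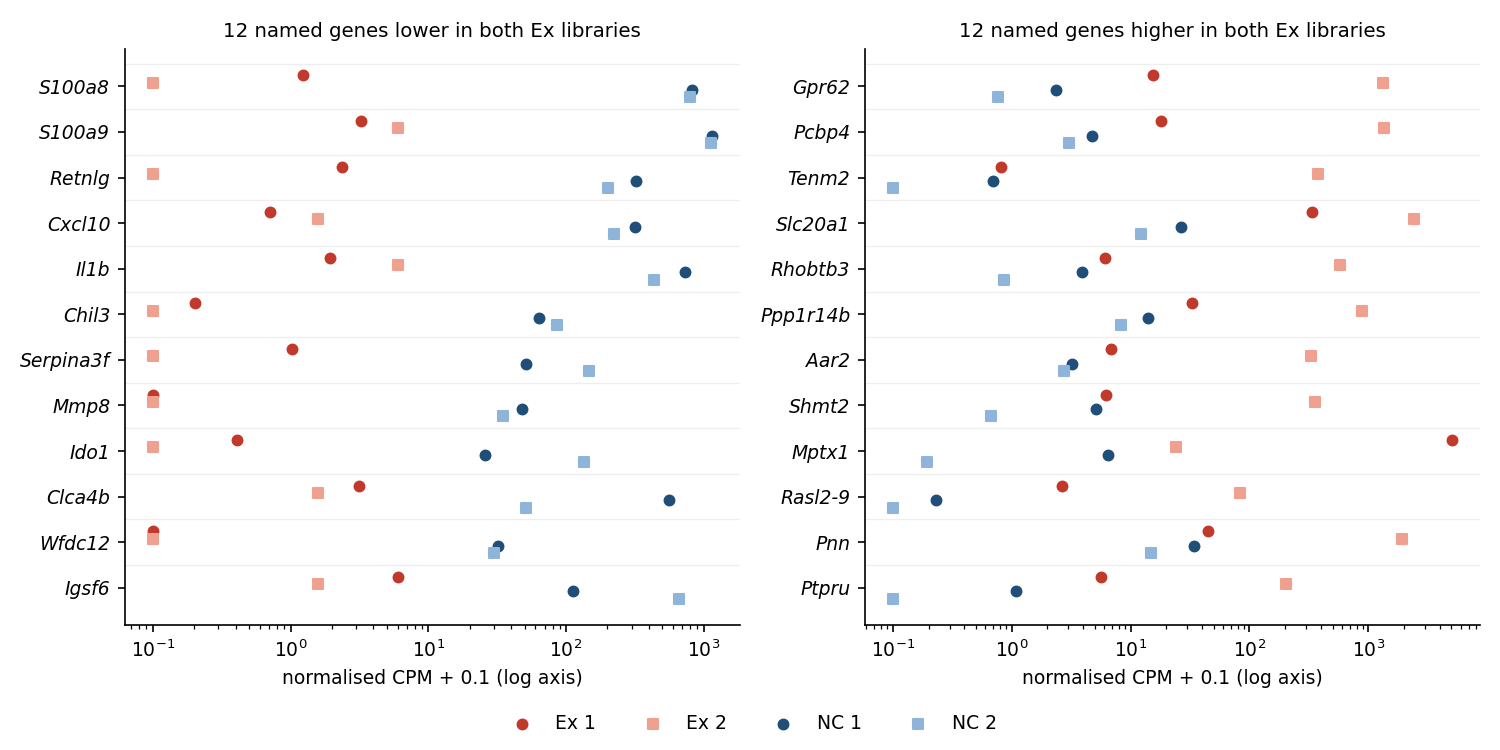
Normalised CPM plus 0.1 on a log axis in Ex 1, Ex 2, NC 1 and NC 2, 1 point per library, for the 12 lower (left) and 12 higher (right) genes with the smallest p among genes whose groups do not overlap; a point at 0.1 has no count. For the lower genes both Ex points lie far left of both NC points, while for the higher genes, Mptx1 excepted, Ex 2 lies furthest to the right and Ex 1 between it and NC.

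The remaining 4 of the 12 lower genes were Ido1, Clca4b, Wfdc12 and Igsf6. Ido1, which breaks down tryptophan after interferon exposure, had 0.307 and 0 CPM in Ex, against 25.6 and 134 CPM in NC. Clca4b, of a family of secreted epithelial proteins, had 3.07 and 1.49 CPM in Ex, against 562 and 51.2 CPM in NC. Wfdc12, a protease inhibitor, had no count in Ex, against 32.3 and 30.1 CPM in NC, which is at least 13.0-fold lower in Ex. Igsf6, an immunoglobulin-family receptor, had 5.93 and 1.49 CPM in Ex, against 112 and 656 CPM in NC, and overlaps Mettl9 in the table. Over the 16 alternatives tried their log2 fold changes ran from -16.0 to -4.42, a sign that their choice by groups that do not overlap had fixed. DESeq2 called all 12, with adjusted p-values from 1.91e-08 to 0.00228, edgeR without the filter on low counts called 10, and edgeR called none of them without Ex 2, with adjusted p-values from 0.251 to 1.

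With Ex 1 as the sole Ex library, 8 lower genes were taken by smallest p among those that were also low in Ex 2 and had at least 10 counts there, or 10 expected from the Ex 1 level. S100a8, S100a9, Il1b and Retnlg had smaller p but too few counts for that check. Saa3 and Serpina3n, given above, were among the 8. Fcer1g and Fcgr3, chains of receptors for immunoglobulins on myeloid cells, had 25.4 and 26.2 CPM in Ex 1 and 1.49 CPM each in Ex 2, while no NC library lay under 167 CPM for either. C3, the central complement component, had 78.9 CPM in Ex 1 and 11.9 CPM in Ex 2, against 605 and 853 CPM in NC, with a log2 fold change of -3.17 without Ex 2 and -3.98 with it. Zbp1, a sensor of nucleic acids in Z form, Ifitm1, an interferon-induced membrane protein, and Serpine2, an inhibitor of serine proteases, had 22.4, 76.0 and 15 CPM in Ex 1 and at least 208, 630 and 162 CPM in NC. All 8 had an edgeR adjusted p of 0.251 or more without Ex 2.

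Antimicrobial genes of the epithelium differed in both directions. Reg3b and Reg3g, lectins that epithelial cells secrete against bacteria, were low in Ex. Reg3b had 7.05 and 13.4 CPM in Ex, against 6657 and 5490 CPM in NC, and Reg3g had 2.15 and 7.45 CPM in Ex, against 3109 and 1887 CPM in NC. The lowest NC library stood 409-fold above the highest Ex library for Reg3b and 253-fold for Reg3g. Mptx1, a mucosal pentraxin of the gut epithelium, ran the other way, with 5038 CPM in Ex 1 and 23.8 CPM in Ex 2, against 6.37 and 0.0954 CPM in NC (log2 fold change 9.60 ± 3.06). It was 1 of the 5 most abundant transcripts of Ex 1, and had 4248 and 8115 CPM in the PC libraries. Of 22 listed genes 15 were tested, 11 were negative and 4 positive; 4 lower and 2 higher genes lay at an unadjusted p under 0.05, but 2 lower and 3 higher without Ex 2. The median was -3.05, -2.07 without Ex 2 and -0.88 without NC 2.

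Goblet cell genes were lower in part. Retnlb, a bactericidal protein of goblet cells, had 5.42 and 10.4 CPM in Ex, against 1470 and 644 CPM in NC (log2 fold change -7.10 ± 1.85; -7.57 without Ex 2). The PC libraries, at 960 and 131 CPM, lay far above Ex for this gene. Galnt12, which starts mucin O-glycans, had 21.0 and 0 CPM in Ex, against 99.5 and 533 CPM in NC, and Spdef, the transcription factor of goblet cell maturation, had 5.11 and 1.49 CPM in Ex, against 20.7 and 165 CPM in NC. In all 3 genes both Ex libraries lay below both NC libraries. Of 24 listed genes 21 were tested, 20 were negative and 4 lay at an unadjusted p under 0.05. The median was -1.71, and -0.90 without Ex 2.

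The summed levels of epithelial identity genes and of junction genes were near NC levels in Ex 1. None of the 18 epithelial genes and none of the 27 junction genes lay at an unadjusted p under 0.05, though 2 epithelial genes were higher at that p without Ex 2. Cdx2, the transcription factor of intestinal identity, had 11 and 0 CPM in Ex, against 36.9 and 92.7 CPM in NC, and the tight junction scaffold Tjp1 had 19.2 and 159 CPM in Ex, against 14.7 and 0.0954 CPM in NC. The claudin Cldn7 had 123 and 1.49 CPM in Ex, against 199 and 502 CPM in NC. The medians were -1.11 for epithelium and -0.73 for junctions, and -0.11 and 0.20 without Ex 2. The sign of the junction median thus turned with Ex 2.

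Ion and water transport genes of colonocytes were higher in Ex 1 than in NC. Their summed level was 14235 and 6601 CPM in Ex, against 4278 and 4705 CPM in NC. The PC libraries, at 10139 and 8979 CPM, also lay above NC, and ExDSS had 3969 and 5028 CPM. Fxyd4, a regulator of the sodium pump, had 175 CPM in Ex 1 (1708 counts) and no count in Ex 2, NC 1 or NC 2, so Ex 1 alone carried the difference, and at the Ex 1 level Ex 2 would have held 117 counts. The mean of both Ex libraries was at least 360-fold higher than NC with the floor of 3 counts per library. Outside this comparison, Fxyd4 had 17.8 and 55.4 CPM in PC, and 47.0 and 37.3 CPM in ExDSS. Atp12a, the colonic proton and potassium pump, had 300 and 5.96 CPM in Ex, against 4.25 and 12.5 CPM in NC, and thus overlapped NC. Scnn1g, the gamma subunit of the epithelial sodium channel, had 1.12 CPM (11 counts) in Ex 1 and no count in the other 3 libraries. Of 26 listed genes 24 were tested, 16 were positive and 3 of these, the genes just described, lay at an unadjusted p under 0.05, where 2.89% of all genes did. Without Ex 2 the count was 18 positive and 6 at that p. The median was 1.30, 1.79 without Ex 2 and -5.37 without Ex 1. Of the other fuel and transport genes, Slc16a1, which carries butyrate and lactate, had 204 and 507 CPM in Ex, against 47.3 and 9.26 CPM in NC, and Slc16a3, the lactate exporter of glycolytic cells, had 4.19 and 1.49 CPM in Ex, against 29.8 and 48.6 CPM in NC. Among 26 genes of butyrate use and fatty acid oxidation these were the 2 at an unadjusted p under 0.05, 1 in each direction.

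**Figure D3:**
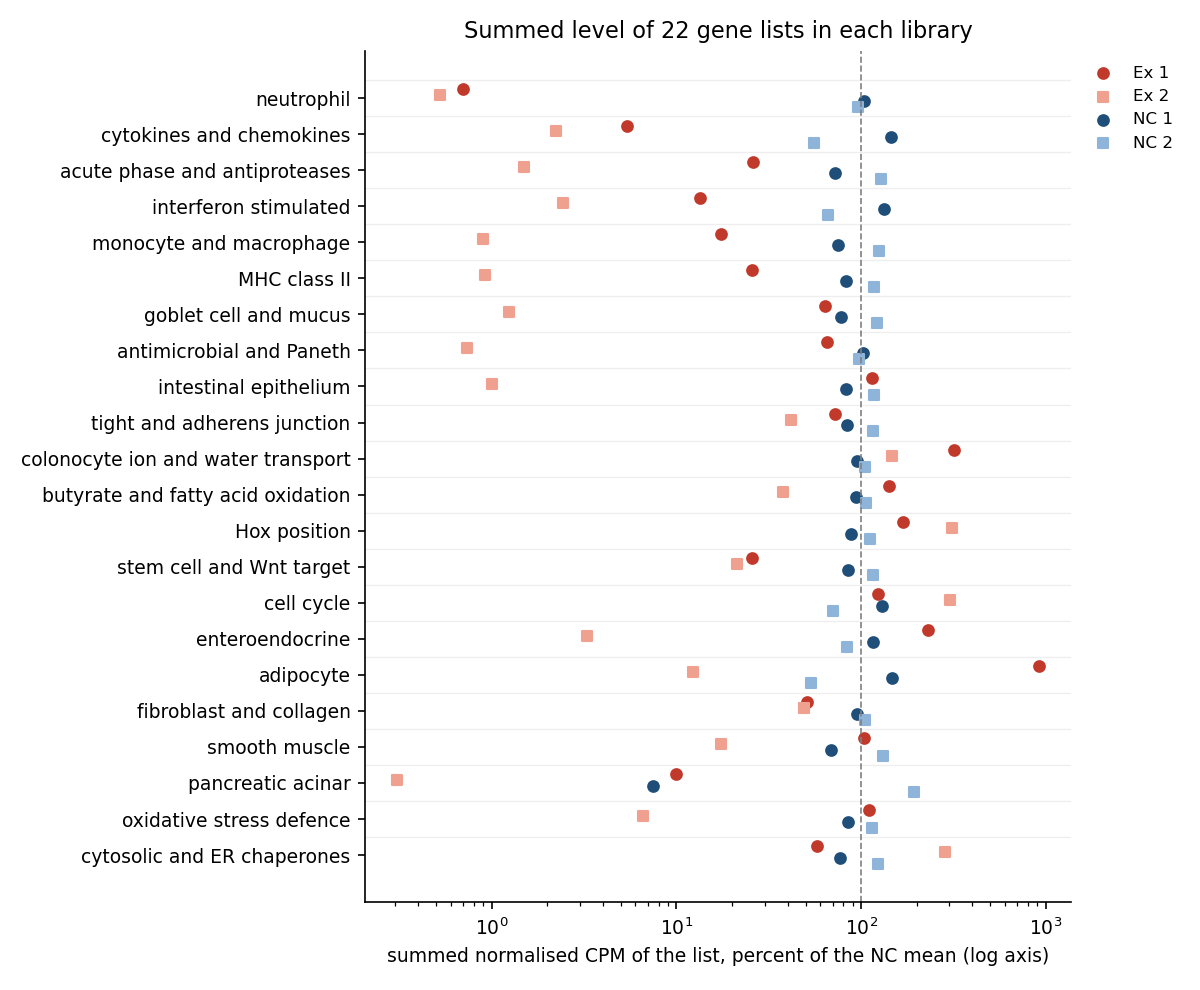
Summed normalised CPM of 22 gene lists in Ex 1, Ex 2, NC 1 and NC 2 as a percentage of the NC mean on a log axis, 1 point per library, with the dashed line at 100%. Ex 1 lies between 72.1% and 115% for epithelium, junctions and smooth muscle and far left for the neutrophil list at 0.701%, while Ex 2 lies at 0.523% for the neutrophil list and at 1.00% for epithelium.

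Hox genes mark position along the gut, and 19 of the 23 tested (16 without Ex 2) had a positive log2 fold change, where 43.6% of all genes did. Hoxb13 is outside the 4 members named by smallest p and was added after its values were seen: it had 183 CPM in Ex 1 and no count in Ex 2, against 5.91 and 0 CPM in NC, and 83.1 and 152 CPM in PC. Hoxd13 had 58.5 and 10.4 CPM in Ex, against 1.13 and 0 CPM in NC, and Hoxd11 had 14.9 and 22.4 CPM in Ex, against 0.133 and 0.0954 CPM in NC. Both Ex libraries lay above both NC libraries for Hoxd11 and Hoxd13. Hoxd12 had 2.97 CPM in Ex 1 and no count elsewhere, and Hoxc9 had 0.613 and 55.1 CPM in Ex, against 0.531 and 0.0954 CPM in NC. Of the 23 tested, 6 lay at an unadjusted p under 0.05 in the edgeR fit with both Ex libraries. All 6 were higher in Ex, where 2.89% of all genes were. The median was 2.47 but 0.52 without Ex 2. Posterior Hox genes mark the distal colon and rectum. The part of the stretch of gut sampled in the other results was not tested.

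Genes of tissues next to the gut moved with single libraries. Adipocyte genes were high in Ex 1: the summed level was 2680 and 35.8 CPM in Ex, 666 and 747 CPM in PC, and 426 and 156 CPM in NC. In ExDSS it was 421 and 2827 CPM, so this level was not particular to Ex 1. Of 17 listed genes 16 were tested, 15 were positive and 3 lay at an unadjusted p under 0.05, with 8 at that p without Ex 2. Car3, a carbonic anhydrase of fat, had 343 and 0 CPM in Ex, against 13.7 and 0.191 CPM in NC, and Retn, the hormone resistin, had 110 and 0 CPM in Ex, against 2.66 and 6.39 CPM in NC. Scd1, a fatty acid desaturase, had 300 and 2.98 CPM in Ex, against 9.03 and 22 CPM in NC, and the lipid droplet protein Plin1 had 12.8 and 0 CPM in Ex, against 0.133 and 0 CPM in NC. Ex 2 lay at or below the NC level for all 4. Pancreatic acinar genes, which encode digestive enzymes, were high in NC 2: the amylase Amy2a5 had 7.46 and 35.8 CPM in Ex, against 0.730 CPM in NC 1 and 51347 CPM in NC 2. The summed level of 24 acinar genes was 6317 and 197 CPM in Ex, against 4743 and 123038 CPM in NC. It was 4309 and 6626 CPM in PC, and 294280 and 14871 CPM in ExDSS, so a high level was not particular to NC 2. The list's median of -8.58 became 3.47 without NC 2. All 21 acinar genes tested were negative and 10 lay at an unadjusted p under 0.05, where 2.42% of all genes were lower. In none of them did both Ex libraries lie at least 2-fold below both NC libraries. Such counts can thus come from a single NC library. The neutrophil median was -6.11 without NC 2 and -7.08 without NC 1. The part of fat in Ex 1 and of pancreas in NC 2 in the other results was not tested.

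Stem cell, proliferation and stress lists had few members at an unadjusted p under 0.05. Of 36 cell cycle genes none lay at an unadjusted p under 0.05, and Smc4, a condensin subunit, had 121 and 1803 CPM in Ex, against 202 and 103 CPM in NC. In the stem cell and Wnt list, Prom1 was the 1 gene at that p, with 91.9 and 0 CPM in Ex, against 552 and 1391 CPM in NC. The list's median was 1.23, and 0.00 without Ex 2. Hmox1, which degrades heme, had 2.25 and 0 CPM in Ex, against 16.3 and 70.6 CPM in NC, and Gpx3, the secreted glutathione peroxidase, had 115 and 28.3 CPM in Ex, against 371 and 1969 CPM in NC. These were the 2 of 31 oxidative stress genes at an unadjusted p under 0.05, but without Ex 2 there were 5 higher and 3 lower. The list's median was -0.90, and -0.14 without Ex 2. Among 25 chaperones, Hsph1 (11.7 and 894 CPM in Ex, against 29.7 and 5.06 CPM in NC) and Hsp90b1 (490 and 5724 CPM in Ex, against 379 and 93.0 CPM in NC) stood at that p (1 lower gene and no higher one without Ex 2), and the list's median of 0.24 turned to -0.61 without Ex 2. It was -0.13 under scaling by total counts.

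Stromal and endocrine lists are to be read against all genes, of which 2.42% were lower and 2.89% higher at an unadjusted p under 0.05. Timp1, an inhibitor of matrix metalloproteinases that is made in injured gut, had 2.45 and 0 CPM in Ex, against 80.9 and 38.4 CPM in NC, and was the 1 of 25 fibroblast and collagen genes at an unadjusted p under 0.05. Its line overlaps Syn1. Without Ex 2, 5 fibroblast and collagen genes were lower and 1 was higher at that p. In 7 of the 25 (28%) both Ex libraries lay at least 2-fold below both NC libraries, against 7.61% of all genes, and the list's median was -1.55, and -0.92 without Ex 2. Of 20 enteroendocrine genes tested, 3 peptide hormone genes stood at that p: Sst (9.82 and 2.98 CPM in Ex, against 36.4 and 128 CPM in NC), Nts (0.818 and 0 CPM in Ex, against 12.7 and 51.6 CPM in NC) and Cck (0.307 and 0 CPM in Ex, against 10.8 and 17.8 CPM in NC). They encode somatostatin, neurotensin and cholecystokinin. Of the 20 enteroendocrine genes, 16 were negative, but 12 without Ex 2. In 4 of them (20%) both Ex libraries lay at least 2-fold below both NC libraries, against 7.61% of all genes. The enteroendocrine median was -1.23, and -0.36 without Ex 2. By summed level the list went the other way in Ex 1, with 2301 and 32.8 CPM in Ex, against 1161 and 843 CPM in NC. Of 20 smooth muscle genes none stood at that p (1 in each direction without Ex 2), and the list's median was -0.44, and 0.47 without Ex 2. Of 77 ribosomal protein and 60 respiratory chain genes none stood at that p, with medians of -0.35 and -0.47, and 0.18 and 0.27 without Ex 2, when 5 ribosomal protein genes were higher at that p. In each of the other 12 lists (small intestine absorption, tuft cells, enteric neurons and glia, endothelium, pancreatic islet, liver, stratified squamous epithelium, skeletal muscle, structured noncoding RNA, immediate early genes, circadian clock and cholesterol synthesis), at most 3 genes stood at that p in either direction, and the medians lay between -3.06 and 2.04.

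**Figure D4:**
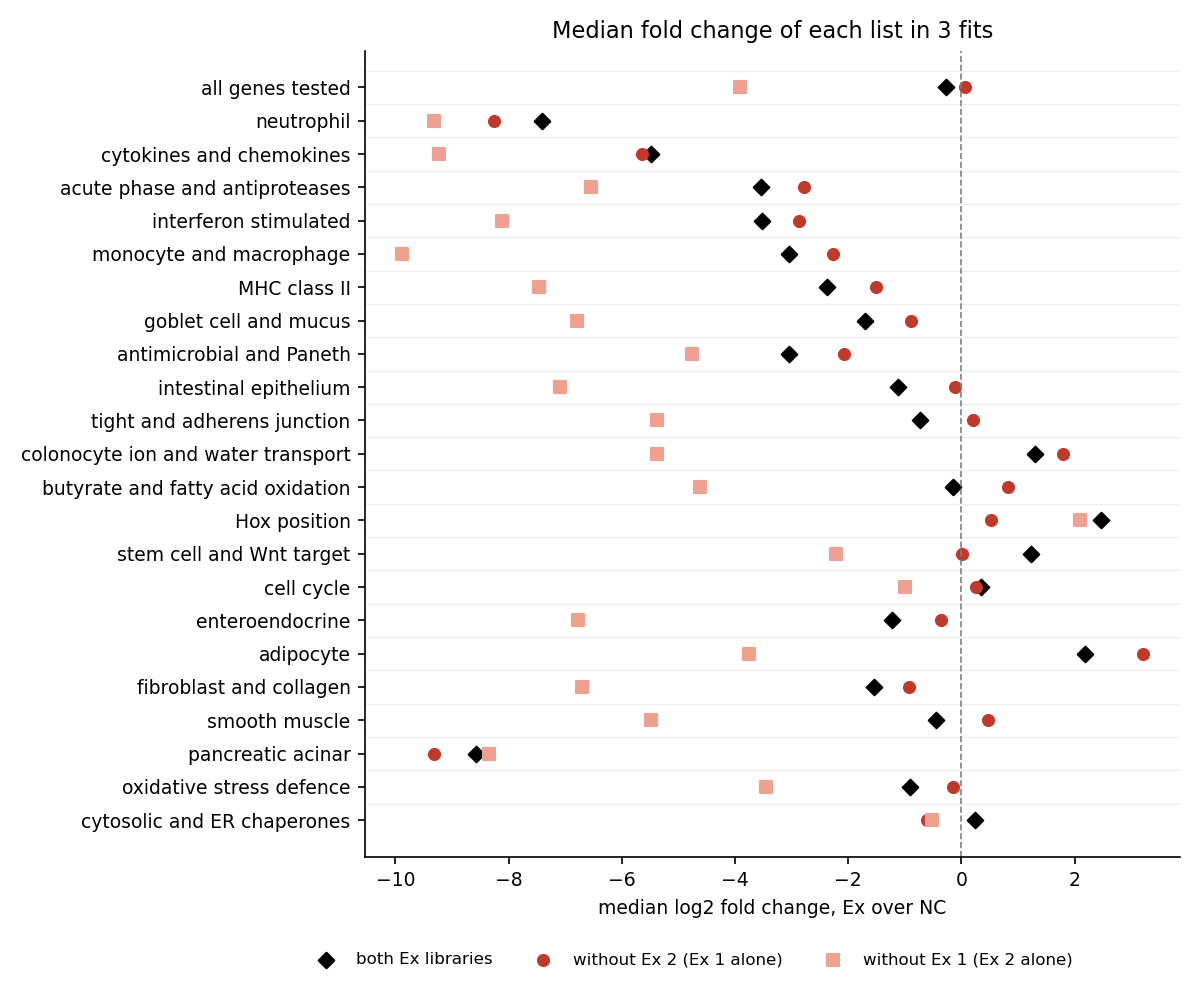
Median log2 fold change of Ex over NC for all genes tested and for 22 gene lists, with both Ex libraries (black diamonds), with Ex 1 alone (red circles) and with Ex 2 alone (pale squares). The neutrophil, cytokine, acute phase, interferon and macrophage medians lie left of the median of all genes in each of the 3 fits. With Ex 2 alone the median of all genes is -3.91, and the epithelial (-7.10) and goblet cell (-6.79) medians lie left of it too, while the Hox median (2.10) lies right. The transport and adipocyte medians lie right of 0 with Ex 1 alone. With Ex 2 alone they are -5.37 and -3.75, left and right of the median of all genes.

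The 12 higher genes were mostly set by Ex 2. Pnn, a splicing-associated protein, had 45.1 CPM in Ex 1 and 1936 CPM in Ex 2, against 34.3 and 14.9 CPM in NC. Gpr62 and Pcbp4, which overlap and had nearly the same values, had 15.4 and 18.1 CPM in Ex 1 and 1341 and 1350 CPM in Ex 2, against at most 4.65 CPM in NC. Tenm2, Rhobtb3, Aar2, Shmt2, Rasl2-9 and Ptpru had 0.716 to 6.75 CPM in Ex 1 and 83.5 to 583 CPM in Ex 2, and at most 5.04 CPM in NC, and Ppp1r14b, an inhibitor of protein phosphatase 1, had 32.7 and 887 CPM in Ex, against 13.9 and 8.21 CPM in NC. Ex 2 was the highest library for each of these. Ex 1 lay 1.20-fold (Tenm2) to 19.3-fold (Rasl2-9) above the higher NC library for these genes, with Gpr62 at 6.84-fold, Ptpru at 5.54-fold and Pcbp4 at 3.89-fold. Tenm2 had 7 counts in Ex 1 and 9 in NC 1, and Rasl2-9 had 25 and 2, so both of their folds rest on few counts. Mptx1, described above, was highest in Ex 1. Slc20a1, a sodium-phosphate cotransporter, had 334 and 2401 CPM in Ex, against 26.5 and 12 CPM in NC (log2 fold change 6.15 ± 1.75; 4.15 without Ex 2), so that its lower Ex library stood 12.6-fold above its higher NC library. It had 101 and 196 CPM in PC. In edgeR's test the 12 had adjusted p-values of 0.666 to 0.930, and 1 for each without Ex 2.

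The 8 higher genes taken in the same way, by smallest p without Ex 2 among those above the NC mean in Ex 2 as well, left out Fxyd4 and Scd1, which had smaller p but no such level in Ex 2. Paics, an enzyme of purine synthesis, had 514 and 53.7 CPM in Ex, against 44.0 and 41.5 CPM in NC. Ptma, which encodes the nuclear protein prothymosin alpha, had 498 and 1750 CPM in Ex, against 120 and 106 CPM in NC. Nop10, of the complex that modifies ribosomal RNA, had 184 and 64.1 CPM in Ex, against 48.2 and 42.4 CPM in NC. For these 3 genes both Ex libraries lay above both NC libraries. Eno3, an enolase, had 104 and 2.98 CPM in Ex, against 2.46 and 3.05 CPM in NC, and Psmb3, a proteasome subunit, had 139 and 7.45 CPM in Ex, against 12.7 and 2.0 CPM in NC, so both overlapped NC through Ex 2. Ttr, the thyroid hormone carrier, had 167 and 22.4 CPM in Ex, against 8.17 and 31.5 CPM in NC, and the small nucleolar RNA Snora30, which lies within Srcap, had 103 and 1.49 CPM in Ex, against 0.929 and 0 CPM in NC. Slc20a1 was the eighth. Their edgeR adjusted p was 0.251 or more.

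The most abundant transcripts also differed between libraries of the same label. After Rn45s, Ex 1 was led by Lypd8, a protein that keeps bacteria off the colonic epithelium (9484 CPM in Ex 1 and 47.7 CPM in Ex 2, against 5054 and 8702 CPM in NC). Ex 2 was led by Pabpc1 and Stc1, and Serf2 had 1440 and 6540 CPM in Ex, against 526 and 528 CPM in NC. The ribosomal protein gene Rps14 had 5239 and 522 CPM in Ex, against 1250 and 1055 CPM in NC, and Rplp1 had 6599 and 531 CPM in Ex, against 5339 and 7787 CPM in NC. In NC 2 the leading genes were Amy2a5 and Amy2a3, followed by Rps20 (3234 and 891 CPM in Ex, against 3970 and 19140 CPM in NC), Chchd2 (2271 and 32.8 CPM in Ex, against 4351 and 18514 CPM in NC) and Rpl26 (3109 and 773 CPM in Ex, against 2339 and 13431 CPM in NC). Across 14567 genes the correlation of log2 CPM was 0.477 between the Ex libraries and 0.750 between the NC libraries, and 0.968 between Ex 1 and the library labelled PC 2. Ex 1 had a correlation of 0.862 with NC 1 and 0.668 with NC 2. Genes are not independent replicates, and these values describe the libraries only.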

How the data were processed

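RNA of intestinal tissue was sequenced in 8 libraries, of which the 2 Ex and 2 NC libraries are compared here. Per the labels' protocols, Trizol was used to isolate RNA, and the QuantSeq 3′ mRNA kit, which reads transcripts from close to their poly(A) tail, to make libraries. The authors deposited raw counts (whole numbers) for each gene and library, and columns were matched to samples by title. Bowtie2, bedtools, edgeR and the build mm9 are named in the submitters' processing notes without versions. Gene widths and coordinates are as deposited by the authors. They were read as GRCm38, since 99.7% of 21952 genes overlap the place of their GRCm38 namesake. No source used here mentions strand or molecular identifiers.

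The counts went into edgeR 4.0.16 (with limma 3.58.1, under R 4.3.3): TMM scaling, filterByExpr (minimum count 10, total 15), robust quasi-likelihood fit with 1 mean per group over 8 libraries and 4 residual degrees of freedom, and Benjamini-Hochberg adjustment. PC and ExDSS enter this fit through the shared spread, the filter on low counts and the TMM scaling. The filter kept 14567 genes with all 8 libraries and 13484 with Ex and NC libraries alone. SE is computed as |log2 fold change| over the root of F. A log2 fold change of a gene with no count in 1 group depends on the prior count, so a bound against 3 counts is given where both libraries of a group were empty. With 2 libraries against 2, an exact permutation test of a single gene cannot pass 0.05, so none is given. Scripts were tested on simulated counts with a smaller spread between libraries than these data had. That test does not show how often differences of a given size would be called here.

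Genes named are the 12 per direction with the smallest p, a mean of at least 5 CPM and groups that do not overlap; up to 4 members of each list with the smallest p; the 5 most abundant per library; and 8 per direction by smallest p without Ex 2 whose direction held in Ex 2, with at least 10 counts there or 10 expected from Ex 1. Predicted gene models were left out. Genes that describe what Ex 2 lacks or holds in excess were chosen after their values were seen. The comparison, the 38 gene lists and the tests were chosen with earlier results of these data known, so no count of a list is independent support. Replicate numbers did not pair Ex and NC libraries: the correlation of their deviations was -0.03. Replicates were not copies of 1 library, with a chi-square per gene of 211 for Ex and 447 for NC. Alternatives were RLE, upper-quartile and total-count scaling, other filters, DESeq2 1.42.0, limma-voom with and without quality weights, thinning to 541286 counts, a replicate block and leaving out each library.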

Additional observations from a re-analysis of the deposited data

Results flagged for a closer look

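Between Ex over NC and ExDSS over PC, the log2 fold change differed for 42 of 14567 genes. These passed edgeR's test of the interaction at an adjusted p under 0.05, and 21 of the 93 genes that the naming rule gave were among them. Most of the 93 were chosen by their p for Ex over NC, which enters this test, so their share among its calls follows in part from that choice. Values below are interaction log2 differences, ExDSS over PC minus Ex over NC. A positive value means a higher log2 fold change under DSS than without it. It equally means that ExDSS and NC together lay above PC and Ex together. The neutrophil sums split the libraries in that way, at 3413 and 2135 CPM in ExDSS and 2675 and 2458 CPM in NC. They were 16.2 and 13.7 CPM in PC and 18.0 and 13.4 CPM in Ex. Whether exosomes, DSS or the labels of the libraries lie behind these calls was not tested. All 8 libraries enter this test, Ex 2 included, so its calls rest in part on a library that lacks the intestinal markers.

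Among genes of neutrophils and macrophages, S100a8 had 20.75 (adjusted p = 0.00415 in edgeR), from -9.91 for Ex over NC and 10.84 for ExDSS over PC. Mmp8 had 19.82, S100a9 had 19.07, Chil3 had 18.10, Retnlg had 12.68, Igsf6 had 13.51 and Spi1 had 9.87. Cytokine and interferon-related genes had values in the same direction, with Cxcl10 at 16.68, Il1b at 15.38, Ido1 at 15.44, Il11 at 13.78, Cxcl5 at 12 and Gbp5 at 11.23. Among protease inhibitors and acute phase genes, Wfdc12 had 19.50, Saa3 had 15.95, Serpina3f had 15.66, Serpina3n had 14.10 and Serpina3g had 12.46. Clca4b had 13.59 and Hmox1 had 11.88. Of the 21, Aar2 was the 1 gene with a negative value, -14.62, from 5.84 for Ex over NC and -8.78 for ExDSS over PC. Aar2 had no count in ExDSS, and Mmp8 and Wfdc12 had none in Ex, so the sizes of these values depend on the prior count. In Ex, Aar2 had 6.75 and 328 CPM, against 3.12 and 2.67 CPM in NC, and its log2 fold change was 1.25 without Ex 2.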

How the results depend on the processing

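The number of genes called between Ex and NC was 0 in edgeR under the 3 other scalings, without structured noncoding RNAs, under a filter of 1 CPM, with Ex and NC libraries alone, and in both limma-voom fits. It was 55 without a filter, 326 in DESeq2, 1 after thinning to equal depth, and 0 to 1596 with 1 library left out, of which only the fit without Ex 1 gave more than 0. At an unadjusted p under 0.05, the 421 higher genes became 845 (RLE), 970 (upper quartile), 143 (total counts), 142 (Ex and NC libraries alone) and 1271 (DESeq2), and 179 to 890 with 1 library left out. The 353 lower genes became 153 (Ex and NC libraries alone), 614 (DESeq2) and 884 (limma-voom), and 238 to 3094 with 1 library left out. The 378 genes with both Ex libraries above became 224 with total counts and 737 after thinning. The median of all genes was -0.49 to 0.11 across scalings and -3.97 to 0.26 with 1 library left out. The cause of these shifts was not tested.

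The labels number the libraries of each group, but the numbers did not pair Ex with NC. With a replicate block, edgeR called 0 genes (smallest adjusted p 0.149), with 176 higher and 256 lower at an unadjusted p under 0.05.

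Of 81 genes with fold changes tested, no direction turned in any scaling, filter, tool or block run that gave a value, which was 75 genes under the filter of 1 CPM, 75 with Ex and NC libraries alone and 73 after thinning. The 81 were chosen from these same data, mostly by smallest p. Their steady direction was therefore largely fixed by that choice. With 1 library left out, log2 fold changes turned for Atp12a (-0.61 to 5.20), Car3 (-9.13 to 9.73), Eno3 (-0.012 to 5.28), Plin1 (-2.73 to 8.98), Psmb3 (-0.12 to 5.20), Retn (-8.50 to 4.64) and Scd1 (-2.50 to 4.31), each negative without Ex 1. They turned for Hsph1 (-0.55 to 6.27) and Smc4 (-0.30 to 3.44), negative without Ex 2, and for Amy2a5 (-11.71 to 4.79), positive without NC 2. Depth limits Ex 2, where 3 counts equal 4.47 CPM.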
